A study of Mus musculus with 21 samples.

Results

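Endothelial cells line blood vessels, and those of the brain form the blood-brain barrier. RNA from such cells was compared between the stroke hemisphere and the non-stroke hemisphere of mice labelled as conditional knockouts of Gpr124, in 8 of the 21 libraries of the series. The 8 were taken by their labels: cKO_ST (stroke hemisphere, n = 4) and cKO_NS (non-stroke hemisphere, n = 4). All of these mice were Gpr124 flox/-; ROSA-CreER+, that is 1 floxed and 1 null allele of Gpr124 with an inducible Cre recombinase. That recombinase is driven from the ROSA locus, which is active in most cell types, so the deletion was not limited to endothelium. For the test of genotype, 8 further libraries were used, Control_ST and Control_NS (n = 4 each), from Gpr124 flox/+; ROSA-CreER+ mice with 1 floxed and 1 intact allele. The mice were adult C57BL/6 animals of 12 to 20 weeks. Every one of the 4 groups had an occlusion of the middle cerebral artery for 1 h followed by reopened flow for 1 d, so the non-stroke hemisphere is that of an animal with a stroke and is not an untreated brain. Live CD45- CD31+ PDGFRb- cells were sorted, a gate that keeps endothelium and drops leukocytes and pericytes. Polyadenylated RNA was amplified with a kit that reads tags near the 3' end of transcripts.

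Brain endothelial cells restrict the passage of solutes. Tight junctions seal the gaps between cells, vesicle traffic is kept low, and the surface carries dedicated carriers for glucose, amino acids, hormones and ions together with pumps that return drugs to the blood. Wnt7 ligands from neural cells maintain this state through Frizzled receptors and beta-catenin, and Gpr124 and Reck are the co-receptors that make endothelium respond to Wnt7. When flow returns after a stroke, endothelium takes on adhesion molecules for leukocytes, changes its matrix and its clotting balance, and induces stress programmes that handle oxidants, unfolded proteins and amino acid shortage.

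Values are the authors' RPKM, read numbers divided by gene length and library depth. A gene counts as tested where its mean was at least 1 RPKM over the 8 libraries, which left 9838 genes after 5 sex-linked genes were set aside. The test was limma on log2(RPKM + 1), a scale that understates changes of genes with low RPKM, and a gene is said to have risen or fallen in cKO_ST against cKO_NS only where its adjusted p was under 0.05. The SE of the fit follows a log2 fold change after ±, and the SD (n = 4) follows a mean RPKM. Values of single libraries are listed in the order of library numbers 1 to 4. Because the reads are 3' tags, division by gene length lowers the RPKM of long genes, so RPKM levels are not compared between genes.

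Estimated depth was 7.22 to 11.6 M reads in cKO_NS and 11.5 to 19.7 M reads in cKO_ST, so the stroke libraries were deeper on average, with cKO_NS 3 as deep as cKO_ST 2. Correlations across genes, which are not independent, were 0.868 to 0.959 within cKO_NS, 0.900 to 0.956 within cKO_ST and 0.822 to 0.934 between the groups. cKO_NS 4 and cKO_ST 4 stood apart from the other libraries on the second principal component. They were also the only libraries with low Xist (1.48 and 0.776 RPKM) and high Y-linked RNA (summed 189 and 249 RPKM). Whether sex underlies that component was not tested. The labels give female for all of cKO_NS and male for cKO_ST 3 and cKO_ST 4. Sex-linked RNA thus went against the label in cKO_NS 4 (labelled female, Xist at 1.48 RPKM) and cKO_ST 3 (labelled male, Xist at 89.7 RPKM). The summed level of 18 endothelial markers was similar in both groups, 6945 to 8897 RPKM in cKO_NS and 6574 to 8907 in cKO_ST. Such a sum is carried by its highest members, and single markers changed in both directions, as given below. Of 12 mural markers 8 were under 1 RPKM in every library, among them Pdgfrb, the gene of the gate, and the sum was 17.4 to 32.0 in cKO_NS and 12.8 to 100.3 in cKO_ST, with the highest sum in cKO_ST 4. The astrocyte sum, most of it Gja1, was 305 to 361 in cKO_NS and 992 to 1075 in cKO_ST. Oligodendrocyte markers were high in libraries 1 and 4 of both groups (45.5 to 540.0 in cKO_NS, 22.2 to 283 in cKO_ST). Red-cell and platelet markers were highest in library 3 of both (6454 to 43299 in cKO_NS, 1649 to 21011 in cKO_ST), and leukocyte markers in cKO_NS 4 (90.7, against 4.67 to 24.2 in every other library). Choroid plexus and ependyma markers were highest in library 2 of both groups (1329 and 996).

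Gpr124 itself, the targeted gene, was 2.03, 0.994, 3.15 and 4.85 RPKM in cKO_NS against 0.5002, 1.72, 1.72 and 1.52 in cKO_ST. The ranges overlapped (log2 fold change -0.60 ± 0.39, adjusted p = 0.352). It was 3.01, 7.58, 4.74 and 2.65 RPKM in Control_NS against 8.12, 5.94, 2.92 and 2.98 in Control_ST. All cKO_ST values were below all control values, while cKO_NS 3 and cKO_NS 4 lay within the Control_NS range. The level in these 2 libraries thus does not show the loss their label gives, and results without cKO_NS 4 are given below for several lists and genes. No label names the exons removed by Cre, and tags from outside them would still be read, so the level of Gpr124 does not settle the genotype, and knockout here means the label.

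After stroke 479 genes rose (4.87%) and 599 fell (6.09%) of the 9838 tested, 11.0% in all. Over the tested genes the median change was -0.13 on the log2 scale, and scaling each library by the median of its ratios to a common reference brought it to -0.01. With that scaling 638 genes rose (6.49%) and 402 fell (4.09%), so that 61.3% of the calls were rises, against 44.4% with the deposited scaling. All 479 rises and 402 of the 599 falls were called under both scalings, 197 falls were lost, 159 rises were added and 0 genes were called in opposite directions. Of the deposited calls, 340 rises and 478 falls exceeded 1 on the log2 scale, and 71 and 73 exceeded 2. Groups did not overlap for 733 genes with cKO_ST above (7.45%) and 1123 with cKO_ST below (11.4%). The total of 1078 was 690 without cKO_NS 2, 587 without cKO_ST 1 and 560 without cKO_ST 2, and falls were 384 without cKO_NS 3. Without cKO_NS 4 and cKO_ST 3, the libraries whose sex-linked RNA goes against the label, 483 rose and 569 fell, of which 363 and 422 are the genes called with all 8. Bulk values do not tell fewer cells with a transcript from less of the transcript per cell.

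**Figure D1:**
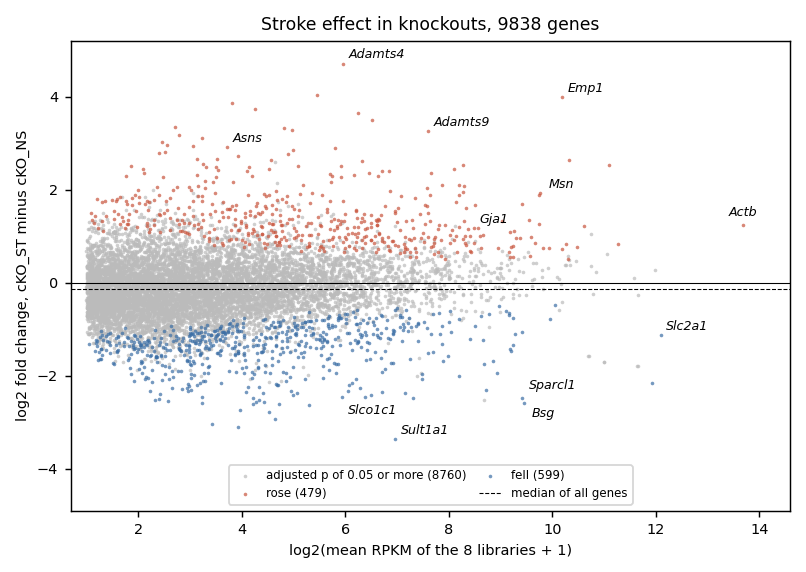
Log2 fold change of cKO_ST against cKO_NS (vertical axis) against log2 of the mean RPKM of the 8 knockout libraries plus 1 (horizontal axis) for all 9838 tested genes, 1 point per gene. Red points rose (479), blue points fell (599), grey points did not pass, and the dashed line is the median of -0.13. Called genes are found from low to high levels, and Actb is the point farthest to the right.

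The largest rises belonged to secreted proteases, a vesicle-linked membrane protein and a vascular peptide. Emp1, a small membrane protein of the tetraspan type (GRCm38, chromosome 6 from 135362545 to 135383173 on the plus strand), was 143, 125, 129 and 150.0 RPKM in cKO_NS against 2384, 2507, 1659 and 2275 in cKO_ST. The groups lay far apart, with the lowest stroke library, cKO_ST 3, above all of cKO_NS (log2 fold change 3.99 ± 0.17, adjusted p = 4.31e-07). Adamts4, a protease that cuts the proteoglycans of the brain matrix (chromosome 1 from 171250421 to 171260637 on the plus strand), was 5.89, 2.43, 0.984 and 7.23 against 143, 129, 69.9 and 133. It had the largest log2 fold change of the rises named here, 4.70 ± 0.43 (adjusted p = 1.24e-04), and cKO_ST 3 was again the lowest stroke library. Apln, the ligand of the apelin receptor of sprouting vessels, was 5.99, 6.26, 2.03 and 2.27 against 85.9, 132, 62.3 and 48.3 (4.03 ± 0.38, adjusted p = 1.83e-04).

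Other rises of this size were in genes of signalling and membrane traffic. Rnd1, a small GTPase that loosens actin fibres, had a mean of 1.73 ± 0.766 in cKO_NS and 34.7 ± 6.99 in cKO_ST (log2 fold change 3.73 ± 0.29). The activin subunit Inhbb went from 5.37 ± 3.401 to 55.5 ± 15.2 (3.29 ± 0.40), the flippase Atp8b1 from 4.54 ± 3.96 to 49.8 ± 23.3 (3.33 ± 0.51) and the protease Adamts9 from 35.5 ± 4.87 to 349 ± 49.6 (3.26 ± 0.18). The row named Mir147 was 12.6, 13.6, 19.3 and 10.1 against 217, 181, 168 and 104, and it sits at chromosome 2 from 122640803 to 122640881 inside AA467197 (122636986 to 122641191), on the same strand. AA467197, named here for that reason, rose too (3.64 ± 0.32), and since 3' tags of polyadenylated RNA cannot separate the pair, the Mir147 value is not a measure of a mature miRNA.

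The largest falls were led by an enzyme that conjugates sulfate to phenols. Sult1a1 (chromosome 7 from 126672865 to 126676432 on the minus strand) was 223, 235, 249 and 169.7 RPKM in cKO_NS against 18.7, 15.9, 71.9 and 7.22 in cKO_ST. The fall was present in every stroke library and least in cKO_ST 3 (log2 fold change -3.37 ± 0.51, adjusted p = 0.00225). Rasgrp2, which activates the small GTPase Rap1 (chromosome 19 from 6399340 to 6415216 on the plus strand), was 31.6, 40.5, 51.01 and 47.6 against 2.9998, 3.36, 10.3 and 4.14 (-2.93 ± 0.33, adjusted p = 4.87e-04). Bsg, the chaperone that carries lactate transporters to the membrane (chromosome 10 from 79704491 to 79711969 on the plus strand), was 1017, 1197, 791 and 1806 against 130.3, 221, 171 and 270.4 (-2.58 ± 0.28, adjusted p = 3.29e-04). These 3 genes each had non-overlapping groups, as the rule for naming required. Itih5, which binds hyaluronan, went from 38.7 ± 4.33 to 5.301 ± 2.96 (-2.78 ± 0.34), and Tecrl, an enoyl-reductase-like gene, from 25.4 ± 4.85 to 4.06 ± 4.58 (-2.74 ± 0.48). Pik3ip1, an inhibitor of PI3-kinase, went from 43.7 ± 15.9 to 6.61 ± 3.42 (-2.61 ± 0.38), Ypel3 from 66.5 ± 29.4 to 10.6 ± 6.73 (-2.64 ± 0.45), the galectin gene Lgals4 from 31.3 ± 5.84 to 5.54 ± 3.67 (-2.57 ± 0.48) and Vstm2b from 9.16 ± 4.16 to 0.808 ± 1.22 (-2.55 ± 0.48). Cytl1 had 8.798, 5.55, 9.28 and 87.3 in cKO_NS against 0.744, 0.532, 1.66 and 0.467 in cKO_ST, so that its level in cKO_NS 4 was far above the rest (-3.11 ± 0.68, adjusted p = 0.0147, and 0.00523 without cKO_NS 4 and cKO_ST 4).

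**Figure D2:**
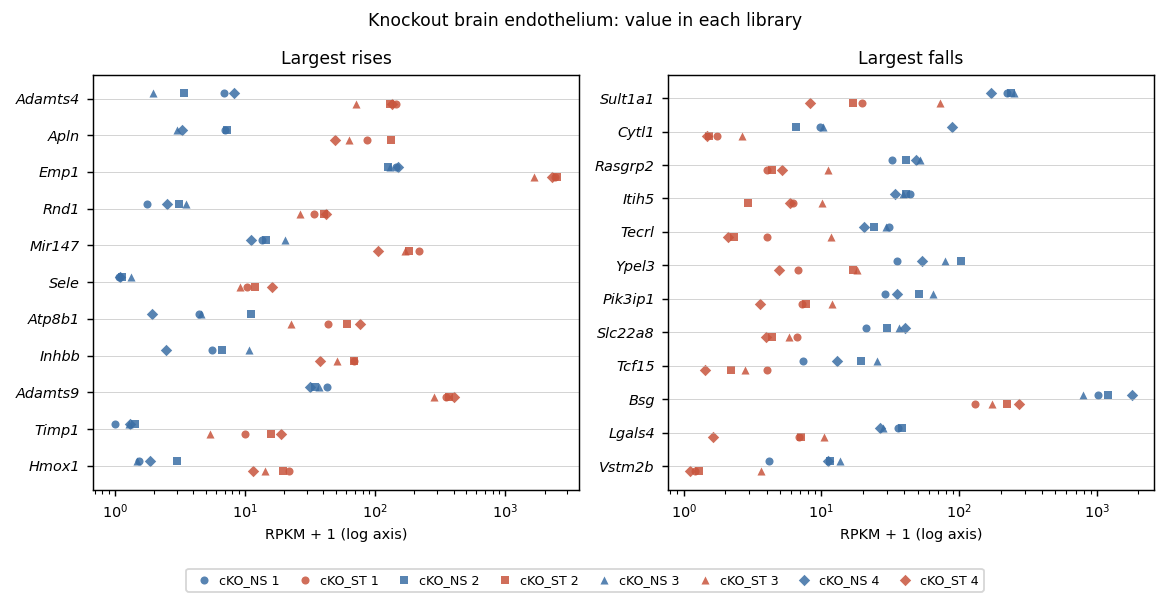
RPKM plus 1 on a log axis in each of the 8 knockout libraries for 11 of the 12 largest rises (left) and the 12 largest falls (right) found by the rule; blue is cKO_NS, red is cKO_ST, and the marker shape gives the library number. Colours do not overlap in any row, which the rule required, and cKO_ST 3 (red triangle) is often the stroke library nearest to cKO_NS.

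The promoter of Emp1 is shown because Emp1 had the smallest adjusted p of the genes named here and because AP-1 sites had the largest gap, in percentage points, between rises and all genes among the 7 motifs searched. Windows from 250 bases before to 50 bases after a RefSeq start (GRCm38.p6) were found for 7396 tested genes and searched on both strands. The AP-1 site TGANTCA was in 5.84% of all windows, in 11.2% of those of genes that rose (38 of 340) and in 6.30% of those of genes that fell (29 of 460). Only 196 of the 250 bases before the Emp1 start are printed, the stretch with no annotated UTR base, and GENCODE places it between exons of a longer Emp1 transcript. It holds 1 of the 2 AP-1 matches in those 250 bases, in capitals, a match being a description of letters and not of a bound factor.
Emp1 (chr6:135362708-135362903, plus strand): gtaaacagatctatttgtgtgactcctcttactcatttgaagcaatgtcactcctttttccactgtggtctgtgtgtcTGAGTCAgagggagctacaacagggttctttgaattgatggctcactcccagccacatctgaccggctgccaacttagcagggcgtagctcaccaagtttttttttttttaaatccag

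Lists of genes with a shared role were then read against these backgrounds, and lists share some members. The plot of list medians orders 39 such lists. Barrier transporters, xenobiotic enzymes and Wnt targets had the lowest medians, and cytokines, coagulation genes and leukocyte adhesion genes the highest.

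**Figure D3:**
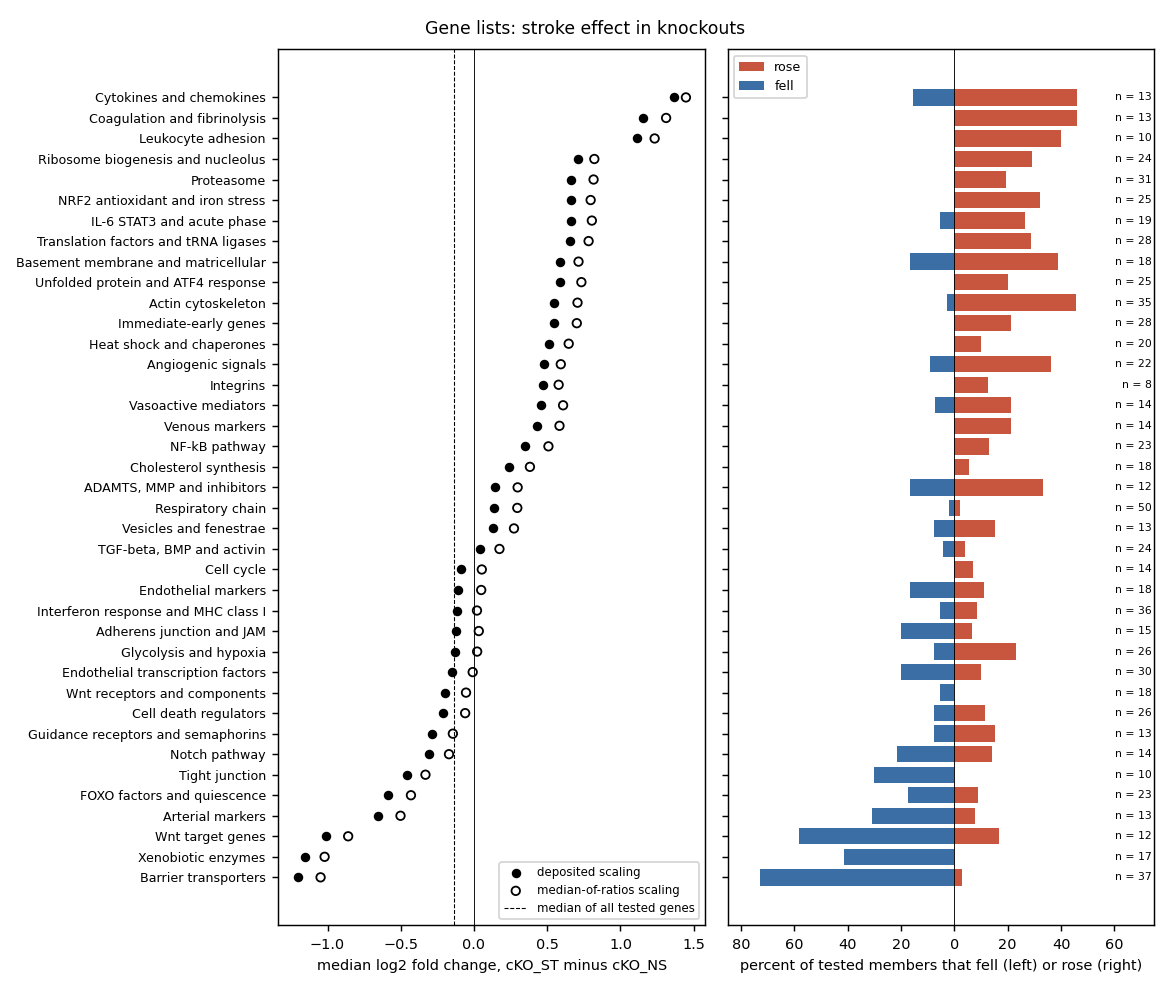
Left, the median log2 fold change (cKO_ST minus cKO_NS) of the tested members of each gene list with the deposited scaling (filled) and median-of-ratios scaling (open), with the median of all tested genes dashed. Right, the percent of tested members that fell (blue, to the left) or rose (red, to the right), with the number tested as n. Every list median moved up with median-of-ratios scaling, and the order of the lists at both ends was kept.

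Carriers and pumps of the barrier fell as a group. Of 37 tested transporters 27 fell and 1 rose, against 6.09% and 4.87% of all genes, with a list median of -1.20 against -0.13. With median-of-ratios scaling 21 fell, and without any 1 library 18 to 25 did. Slco1c1, which carries thyroid hormone (chromosome 6 from 141524368 to 141570177 on the plus strand), was 289, 272, 236 and 272 RPKM in cKO_NS against 36.4, 40.2, 72.2 and 46.4 in cKO_ST, with no overlap (log2 fold change -2.48 ± 0.22, adjusted p = 1.08e-04). Its relative Slco1a4, a carrier of organic anions, was 624, 749, 709 and 661 against 98.2, 105, 292 and 120.3. Here cKO_ST 3 kept more of the transcript than the other stroke libraries (-2.30 ± 0.30, adjusted p = 0.00105). The third organic anion carrier, Slco2b1, fell less (-1.17 ± 0.30), and Slc22a8, which clears organic acids, fell from 30.9 ± 8.48 to 4.202 ± 1.27 (-2.60 ± 0.29).

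Nutrient carriers fell too. Slc7a5, the light chain of the carrier for large neutral amino acids, was 42.6, 68.8, 57.1 and 33.3 against 8.56, 12.2, 13.2 and 4.21. All stroke libraries were below all others (-2.34 ± 0.34, adjusted p = 0.00194), while its heavy chain Slc3a2 fell only by 0.67 on the log2 scale and not with median-of-ratios scaling (adjusted p = 0.0721). The cationic amino acid carrier Slc7a1 went from 200.5 ± 40.8 to 95.9 ± 4.904 (-1.04 ± 0.18) and the glutamine carrier Slc38a3 from 25.1 ± 4.998 to 5.895 ± 1.67 (-1.94 ± 0.27). Slc19a3, the thiamine carrier, went from 34.1 ± 9.55 to 6.19 ± 3.37 (-2.37 ± 0.37), and the lactate carrier Slc16a1 from 850.3 ± 205 to 393 ± 73.4 (-1.10 ± 0.20). Slc2a1, the glucose carrier, was 7472, 6466, 6961 and 3242 in cKO_NS against 2294, 2342, 4118 and 2149 in cKO_ST. cKO_NS 4 was below cKO_ST 3, so the groups overlapped. The fall was called with the deposited scaling (-1.13 ± 0.28, adjusted p = 0.0269), not with median-of-ratios scaling (adjusted p = 0.0547), and at 3.24e-04 without those 2 libraries.

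Efflux pumps, lipid carriers and receptors of transcytosis followed. Abcb1a, the P-glycoprotein pump, was 203, 206, 191 and 121 against 45.7, 42.6, 78.4 and 48.7 (-1.74 ± 0.24, adjusted p = 0.00168), and Abcc4 went from 79.1 ± 9.24 to 21.6 ± 7.84 (-1.88 ± 0.24). Abcg2 fell by 0.96 and Abcc6, at low levels, by 1.64. Mfsd2a, a lysolipid carrier that limits vesicle transport, was 44.4, 43.1, 40.1 and 37.1 against 12.6, 16.4, 11.97 and 20.7 (-1.39 ± 0.22, adjusted p = 0.00302), and the phospholipid flippase Atp10a was 174, 195, 159 and 159 against 32.9, 29.01, 53.2 and 23.03 (-2.34 ± 0.24, adjusted p = 2.60e-04). Metal carriers fell: Slc39a10, a zinc importer (-1.46 ± 0.22), Slc30a1, a zinc exporter (-0.96 ± 0.19), Slc39a8 (-1.55 ± 0.43) and the iron exporter Slc40a1 (-1.20 ± 0.31). So did the receptors Tfrc for transferrin (-0.79 ± 0.19), Insr for insulin (-1.23 ± 0.27), Lepr for leptin (-1.67 ± 0.47) and Lrp8 (-1.93 ± 0.27). With median-of-ratios scaling the calls of Slc39a8, Slc40a1, Tfrc and Lepr were lost (adjusted p = 0.06, 0.0551, 0.0672 and 0.0588).

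Enzymes that metabolise drugs and amines fell in the same libraries. Of 17 tested, 7 fell (4 without cKO_ST 1, 5 with median-of-ratios scaling) and 0 rose, with a median of -1.15. Beside Sult1a1 these were Gstm1, a glutathione transferase (44.02, 44.5, 45.96 and 49.7 against 10.4, 10.4, 13.2 and 6.38; -2.12 ± 0.23), the epoxide hydrolase Ephx1 (30.4 ± 8.08 to 4.76 ± 2.09; -2.49 ± 0.32), the cytochrome Cyp2d22 (-2.07 ± 0.46), Aldh2 (-1.36 ± 0.31) and the monoamine oxidases Maoa (-0.99 ± 0.27) and Maob (-1.15 ± 0.32). Both oxidases lost the call with median-of-ratios scaling (adjusted p = 0.0814 and 0.0607).

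Junction genes changed in part. Of 10 tight-junction genes 3 fell and 0 rose. Ocln, occludin, was 224, 275, 224 and 221 in cKO_NS against 118, 104, 113 and 68.05 in cKO_ST (-1.25 ± 0.20, adjusted p = 0.00306), and Tjp1, the scaffold ZO-1, was 274, 264, 234 and 233 against 127, 138, 137 and 109 (-0.97 ± 0.16, adjusted p = 0.0031). All stroke values of both were below all non-stroke values. Cldn5, the main claudin, was 149.5, 158, 162 and 179.9 against 72.04, 95.7, 115 and 127. Its groups did not overlap, but the fall was called only narrowly (-0.69 ± 0.20, adjusted p = 0.0463), not with median-of-ratios scaling (adjusted p = 0.1), not without cKO_NS 4 and cKO_ST 3 (adjusted p = 0.0834) and in only 1 of the 8 fits that left out a single library. Of 15 adherens-junction genes Cdh5, VE-cadherin, rose from 291 ± 39.3 to 494 ± 97.3 (0.75 ± 0.19), and the phosphatases Ptprb (-0.77 ± 0.17) and Ptpn14 (-1.22 ± 0.34) and the adhesion molecule Jam2 (-0.77 ± 0.19) fell. Cdh5 kept its call with median-of-ratios scaling, and of these 3 falls only Ptprb did. Of the same 3 falls 0 were called without cKO_NS 2 or cKO_ST 2 and 1 without cKO_NS 1, cKO_ST 1 or cKO_ST 4. The rise of Cdh5 was called only in the fits without cKO_NS 3, cKO_NS 4 or cKO_ST 4.

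Among 13 vesicle genes Emp1 and Ehd4, a recycling-endosome protein (15.2 ± 3.02 to 36.8 ± 6.304; 1.23 ± 0.23), rose. Sdpr, a caveolar coat protein, fell from 357 ± 19.9 to 113 ± 26.1 (-1.67 ± 0.18). Plvap, the diaphragm protein of fenestrated vessels, was 0.618, 3.07, 1.33 and 0.866 in cKO_NS against 4.75, 4.803, 1.33 and 15.2 in cKO_ST, with overlap (1.36 ± 0.53, adjusted p = 0.126).

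**Figure D4:**
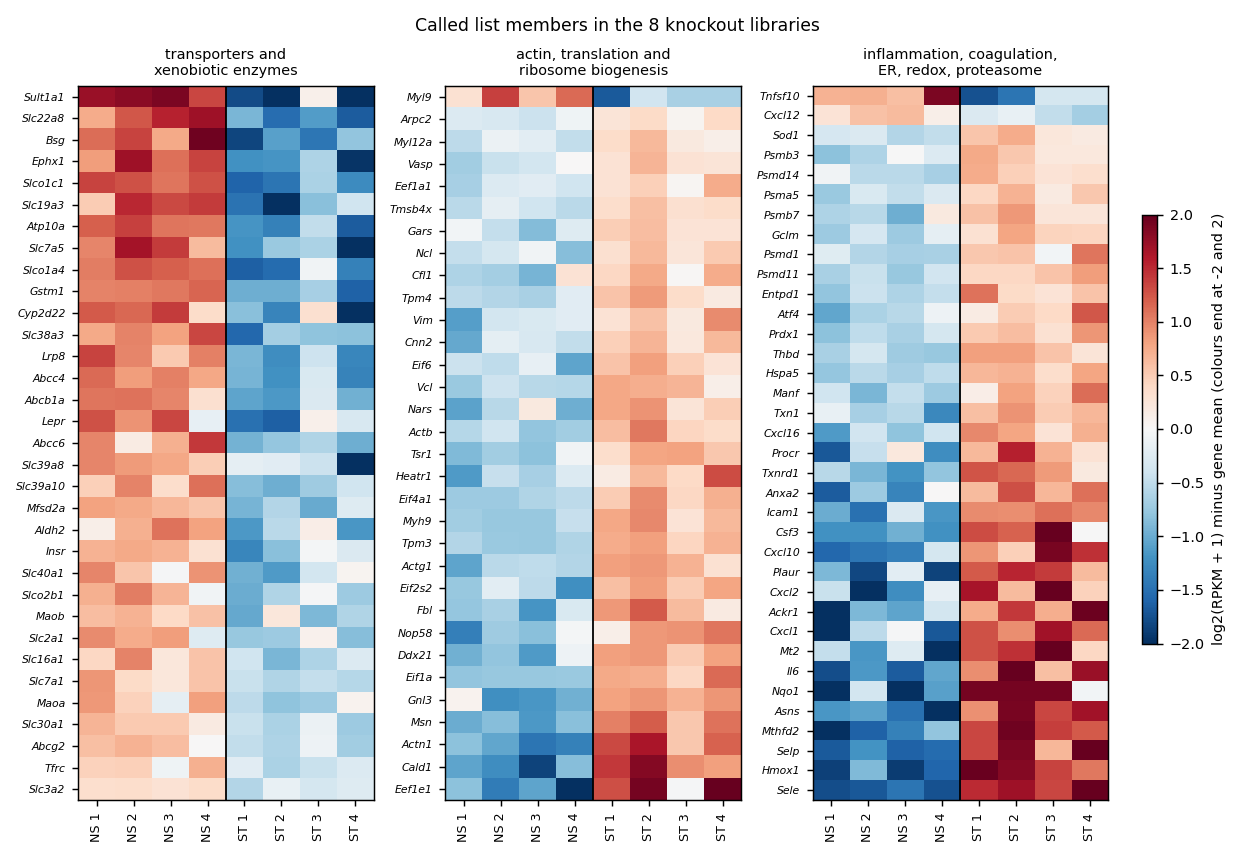
Log2(RPKM + 1) minus the gene's mean over the 8 libraries, as colour (blue below, red above, colours ending at -2 and 2), for the called members of selected lists that are reported here, with cKO_NS 1 to 4 left and cKO_ST 1 to 4 right of the line in each panel. In the left panel cKO_ST 3 is closer to cKO_NS than the other stroke libraries for Slco1a4, Sult1a1, Cyp2d22 and Slc2a1.

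Wnt targets fell more often than they rose. Of 12 tested 7 fell and 2 rose (median -1.01). Falls were 6 with median-of-ratios scaling and 4 without cKO_NS 2 or without cKO_ST 2. Axin2, the feedback inhibitor of the pathway (chromosome 11 from 108920349 to 108950783 on the plus strand), was 2.31, 2.82, 2.68 and 2.84 RPKM in cKO_NS against 0.409, 0.183, 0.332 and 0.0716 in cKO_ST. All stroke values were under 1 RPKM and all others above 2 (-1.56 ± 0.28, adjusted p = 0.00551). Lef1, a DNA-binding partner of beta-catenin, was 1269.7, 1298, 1353 and 1077 against 833, 682, 887 and 543, a smaller change that was called with the deposited scaling alone (-0.78 ± 0.18, adjusted p = 0.0174, and 0.0521 with median-of-ratios scaling). Notum, an enzyme that inactivates Wnt proteins, went from 5.21 ± 1.96 to 0.394 ± 0.131 (-2.11 ± 0.31), and Sox17 from 52.8 ± 8.23 to 20.96 ± 4.62 (-1.30 ± 0.22). Tcf7, a relative of Lef1, fell by 1.26 and the receptor Tnfrsf19 by 1.23.

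The 2 rises on that list, Myc and Ccnd1, also respond to growth factors. Myc was 0.231, 0.164, 0.541 and 0.169 against 6.87, 7.44, 5.19 and 13.6 (2.79 ± 0.33, adjusted p = 5.97e-04), and Ccnd1, cyclin D1, 1.75, 7.76, 4.47 and 11.8 against 27.6, 69.96, 21.9 and 30.3 (2.44 ± 0.48, adjusted p = 0.00875). Of 18 receptors and components of the pathway only Reck, the partner of Gpr124, fell, from 64.03 ± 22.1 to 29.4 ± 7.08 (-1.07 ± 0.27), a share under the 6.09% of all genes. That call was not made with median-of-ratios scaling (adjusted p = 0.0651) or without cKO_NS 1, cKO_NS 2, cKO_ST 1, cKO_ST 2 or cKO_ST 3.

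The promoter of Tnfrsf19 is shown as the single window among 5 Wnt targets with a RefSeq window that held CTTTGAT, the core of TCF and LEF sites. Of the windows of all tested genes 2.95% held it, and of those of genes that fell 4.78%. The match lies on the other strand, in capitals, 195 bases before the start, and a noncoding gene of the other strand, Gm41168, overlaps the region.
Tnfrsf19 (chr14:61037988-61038237, minus strand): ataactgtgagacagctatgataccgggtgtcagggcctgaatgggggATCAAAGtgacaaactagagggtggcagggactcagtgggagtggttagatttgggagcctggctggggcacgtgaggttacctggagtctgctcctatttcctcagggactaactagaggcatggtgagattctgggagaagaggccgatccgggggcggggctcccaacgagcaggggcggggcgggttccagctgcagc

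Transcription factors of endothelial identity split: of 30 tested 6 fell and 3 rose. Beside Sox17 the falls included Foxq1, which is enriched in brain vessels (139.5, 141, 161 and 205 against 77.6, 64.8, 87.6 and 86.6; -1.01 ± 0.19, adjusted p = 0.00655), Tcf15 (15.3 ± 7.71 to 1.62 ± 1.096; -2.59 ± 0.43), Lmo2 (-0.85 ± 0.16) and Epas1, HIF-2alpha (-0.69 ± 0.16), whose call was lost with median-of-ratios scaling (adjusted p = 0.0576). Ets1 (1.00 ± 0.19), Mef2a (0.93 ± 0.19) and Sox7 (0.87 ± 0.25) rose. Of 18 surface markers of endothelium Emcn, endomucin, rose from 149.9 ± 8.12 to 265 ± 54.3 (0.80 ± 0.17) beside Cdh5. The receptor component Ramp2 (269.7 ± 37.8 to 131 ± 49.4; -1.10 ± 0.25) and the angiopoietin receptor Tek (-0.80 ± 0.19) fell beside Cldn5. Without cKO_ST 2, 0 rises and 1 fall of that list were called. Falls were also 1 without cKO_NS 2 or cKO_ST 1, and rises 1 without cKO_NS 1, cKO_NS 2, cKO_ST 1 or cKO_ST 3.

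Among arterial genes most calls were falls, and the Notch pathway, which sets arterial fate, had calls in both directions. Jag1, a Notch ligand, was 445, 539, 501 and 417 in cKO_NS against 176, 177, 259 and 210.1 in cKO_ST (-1.22 ± 0.17, adjusted p = 0.00172), with no overlap. The receptor Notch4 fell by 0.95 and the target Hey1 by 1.08, both not with median-of-ratios scaling (adjusted p = 0.0683 and 0.0653). The ligand Dll1 rose from 5.15 ± 3.03 to 17.9 ± 3.08 (1.74 ± 0.35), and so did the feedback gene Nrarp (1.09 ± 0.29), making 2 rises and 3 falls of 14, and 2 rises and 1 fall with median-of-ratios scaling. Falls of the Notch list were 1 without cKO_NS 2, cKO_NS 3, cKO_ST 1, cKO_ST 2 or cKO_ST 4, and rises were 1 in every fit without a single library except that without cKO_NS 2. Of 13 arterial markers 4 fell (2 without cKO_ST 1), namely Jag1, Hey1, Cytl1 and the phosphatase Alpl (15.1 ± 11.6 to 2.49 ± 1.804; -2.11 ± 0.48). Tm4sf1, a membrane protein of filopodia, rose from 111 ± 26.7 to 471 ± 75.4 (2.09 ± 0.20). Of 14 venous markers 3 rose and 0 fell: Icam1, Ackr1 and Lcn2, which also stand on inflammatory lists. Without cKO_NS 4, 1 venous marker fell.

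Guidance genes moved both ways. Sema6d rose from 2.26 ± 0.604 to 12.00 ± 2.64 (1.99 ± 0.28) and the ephrin receptor Epha2 from 3.17 ± 0.901 to 13.6 ± 5.58 (1.75 ± 0.33), while Sema3c fell from 357 ± 38.2 to 169.7 ± 20.2 (-1.07 ± 0.16), 3 of 13 tested. In the TGF-beta, BMP and activin list 2 of 24 were called, a share under the 11.0% of all tested genes. These were Inhbb upward and the receptor Tgfbr2 downward (-0.75 ± 0.18), the latter not with median-of-ratios scaling (adjusted p = 0.0538) or without cKO_NS 2, cKO_ST 1 or cKO_ST 2.

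Molecules that capture leukocytes rose. Of 10 tested adhesion genes 4 rose and 0 fell, with a median of 1.12. Sele, E-selectin (chromosome 1 from 164048234 to 164057677 on the plus strand), was 0.07399, 0.128, 0.334 and 0.0921 RPKM in cKO_NS against 9.31, 10.9, 8.24 and 15.2 in cKO_ST. It was near 0 in every non-stroke library (3.34 ± 0.29, adjusted p = 1.08e-04). Selp, P-selectin, was 0, 0.399, 0.0501 and 0.105 against 7.08, 10.8, 4.101 and 13.3 (3.02 ± 0.36, adjusted p = 6.78e-04), with 1 non-stroke library listed at 0. Icam1, the ligand of leukocyte integrins, was 9.15, 6.15, 15.5 and 7.998 against 37.96, 37.5, 42.3 and 38.4 (1.97 ± 0.26, adjusted p = 0.00134), and the chemokine-binding receptor Ackr1 was 0.359, 3.23, 2.76 and 5.11 against 12.2, 20.03, 11.98 and 29.5 (2.42 ± 0.46, adjusted p = 0.00759). The stroke values of Icam1 lay within a narrow band, whereas those of Ackr1 and the selectins were highest in cKO_ST 4. Vcam1, the other main adhesion molecule, was 12.96, 19.9, 24.8 and 48.6 against 17.3, 21.9, 29.2 and 84.5. Its values overlapped across the groups (0.38 ± 0.49, adjusted p = 0.65), with library 4 highest in both.

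Cytokines and chemokines rose: 6 of 13 tested, with a median of 1.36, and 2 fell. Il6 was 0, 0.542, 0.0793 and 0.661 in cKO_NS against 5.505, 16.4, 4.18 and 10.2 in cKO_ST (2.80 ± 0.41, adjusted p = 0.00186). Cxcl1, which draws neutrophils, was 4.95, 27.3, 38.9 and 11.5 against 97.3, 76.9, 129 and 88.6 (2.51 ± 0.49, adjusted p = 0.00873), and Csf3, the growth factor of neutrophils, was 0, 0, 0.1899 and 0 against 4.73, 4.23, 8.78 and 1.300 (2.29 ± 0.41, adjusted p = 0.0059), listed at 0 in 3 of 4 non-stroke libraries. For these 3 genes the least stroke value was above the greatest non-stroke value. Cxcl10 was 0, 0.0894, 0.157 and 1.33 against 4.45, 3.14, 10.1 and 7.204 (2.36 ± 0.40). Cxcl2 (2.40 ± 0.57) and the membrane-bound Cxcl16 (1.36 ± 0.31) rose as well. Cxcl12, which retains cells at vessels, fell by 0.81, without a call under median-of-ratios scaling (adjusted p = 0.0551), and the death ligand Tnfsf10 fell from 87.9 ± 44.1 to 22.5 ± 11.03 (-1.94 ± 0.38). Of these 2 falls 1 was called without cKO_NS 2, cKO_NS 3 or cKO_ST 1.

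An NF-kB consensus, a motif of the factor that drives many of these genes, was in the windows of 5 of 10 cytokine genes, among them Il6, Cxcl1, Cxcl2 and Cxcl10 of the 6 called ones with a window. It was in 0 of 8 leukocyte adhesion windows, in 12.3% of all windows, in 15.9% of those of rises and in 11.1% of those of falls. The promoter of Cxcl1 is shown, with 2 overlapping matches in capitals 60 bases before the start, and 246 of the 250 bases are printed because the rest is annotated UTR.
Cxcl1 (chr5:90890995-90891240, plus strand): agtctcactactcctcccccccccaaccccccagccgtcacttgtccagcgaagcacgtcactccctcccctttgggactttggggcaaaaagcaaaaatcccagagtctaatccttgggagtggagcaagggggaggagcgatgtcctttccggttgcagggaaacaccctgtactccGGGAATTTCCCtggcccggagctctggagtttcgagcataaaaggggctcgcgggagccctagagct

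The interleukin-6, STAT3 and acute-phase list had 5 rises and 1 fall of 19 tested (3 rises without cKO_ST 2). Timp1, an inhibitor of metalloproteases, was 0, 0.441, 0.2899 and 0.301 RPKM in cKO_NS against 8.95, 14.8, 4.37 and 17.9 in cKO_ST (3.17 ± 0.40, adjusted p = 9.09e-04). Ch25h, which makes 25-hydroxycholesterol, went from 76.5 ± 29.2 to 304 ± 62.6 (2.03 ± 0.25), the interleukin-4 receptor Il4ra from 2.36 ± 0.175 to 9.295 ± 1.94 (1.59 ± 0.27) and the kinase Jak2 from 22.7 ± 5.79 to 46.7 ± 8.64 (1.02 ± 0.23). Lcn2, lipocalin 2, was 73.2, 80.6, 266 and 83.9 against 269, 344, 944 and 286, with library 3 the highest of each group (1.88 ± 0.46, adjusted p = 0.0248, and 0.0806 without cKO_NS 4 and cKO_ST 3). The receptor Lifr fell by 1.16, a call lost without cKO_NS 2, cKO_ST 1 or cKO_ST 2. Socs3, a brake on STAT3, was 12.5, 12.8, 12.2 and 30.3 against 34.2, 26.03, 20.7 and 35.3. The value of cKO_NS 4 lay within the stroke range, and the gene was not called (0.82 ± 0.31, adjusted p = 0.12; 0.0112 without cKO_NS 4 and cKO_ST 3).

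Of 23 NF-kB genes 3 rose and 0 fell: Tnfaip3, the inhibitor A20 (2.49, 6.51, 5.603 and 2.79 against 22.5, 20.6, 29.5 and 15.8; 2.16 ± 0.32, adjusted p = 0.00206), Nfkbiz (45.99 ± 15.3 to 104 ± 20.4; 1.19 ± 0.25) and the receptor Tlr4 (1.9999 ± 0.47). Of 36 interferon and MHC class I genes 3 rose and 2 fell, near the background, and the 3 rises were the neighbouring family Ifitm1 (1.11 ± 0.31), Ifitm2 (142 ± 29.7 to 279.9 ± 45.1; 0.98 ± 0.20) and Ifitm3 (296 ± 39.1 to 752 ± 135; 1.33 ± 0.18), whose reads near-identical copies could share. Psmb9, a subunit of the immunoproteasome, fell from 14.5 ± 5.08 to 2.53 ± 0.882 (-2.12 ± 0.31) and the GTPase Gbp7 from 53.7 ± 15.6 to 26.3 ± 1.87 (-0.97 ± 0.22), with 1 of those 2 falls called without cKO_ST 2.

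Genes of clotting and of clot breakdown rose: 6 of 13 and 0 fell (median 1.16). Some of them favour and some oppose clotting. They included Plaur, the urokinase receptor (38.2, 19.7, 62.6 and 19.4 RPKM against 169.8, 209.8, 193 and 112; 2.39 ± 0.36, adjusted p = 0.00212), Anxa2, which gathers plasminogen and its activator (32.9, 64.1, 42.05 and 107 against 166, 262, 170.1 and 231; 1.85 ± 0.33, adjusted p = 0.00524) and Thbd, thrombomodulin (128, 158, 122 and 119 against 357, 355, 299 and 241; 1.23 ± 0.18, adjusted p = 0.00191). All stroke values of the 3 genes were above all non-stroke values, and Anxa2 was higher in cKO_NS 4 than in the other non-stroke libraries. The protein C receptor Procr (1.60 ± 0.41) and the ADP-degrading Entpd1 (1.16 ± 0.22) also rose.

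Matrix genes moved in both directions. Of 18 basement-membrane and matricellular genes 7 rose and 3 fell. Col4a1, a chain of collagen IV, was 56.5, 44.6, 62.3 and 49.8 in cKO_NS against 122, 166, 110.1 and 155 in cKO_ST (1.35 ± 0.20, adjusted p = 0.00184), and its partner Col4a2 went from 43.02 ± 10.8 to 99.3 ± 18.7 (1.203 ± 0.22). Nid1, which links collagen IV to laminin, was 12.1, 15.2, 8.72 and 10.9 against 52.9, 50.2, 46.6 and 31.3 (1.86 ± 0.24, adjusted p = 0.00118). Sparc rose from 507 ± 141 to 1199.5 ± 233 (1.26 ± 0.22), Igfbp7 from 888 ± 160.2 to 1577 ± 206 (0.84 ± 0.17) and Cyr61 from 97.97 ± 17.5 to 289.6 ± 109 (1.49 ± 0.27), and Thbs1 rose at low levels (1.68 ± 0.46; called in 1 of 8 fits without a single library). Sparcl1, a close relative of Sparc (chromosome 5 from 104079111 to 104113733 on the minus strand), went the other way, 1172, 1489, 840.0 and 1120.2 against 215, 199, 214 and 184 (-2.48 ± 0.18, adjusted p = 5.12e-05). Agrn, agrin, fell from 40.7 ± 17.9 to 13.1 ± 2.02 (-1.49 ± 0.29), and Fn1, fibronectin, from 74.5 ± 9.501 to 44.2 ± 8.23 (-0.75 ± 0.20), the latter not with median-of-ratios scaling (adjusted p = 0.081).

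Of 12 tested proteases and inhibitors 4 rose: Adamts1 (18.5, 29.9, 33.9 and 30.02 against 183, 138, 113 and 153; 2.36 ± 0.23, adjusted p = 2.16e-04), Adamts4, Adamts9 and Timp1. Adamts10 (-1.37 ± 0.34) and Reck fell, with 0 of these 2 falls called without cKO_ST 1 or cKO_ST 2 and 1 without cKO_NS 1 or cKO_NS 2. Mmp3, listed at 0, 0, 0 and 0 in cKO_NS against 0.0402, 0.192, 0.0745 and 0 in cKO_ST, and Mmp9, listed at 0, 0, 0 and 0 and 0, 0, 0.0212 and 0, were below the filter. Of 8 integrin subunits Itgb1, the common beta chain, rose from 179 ± 41.3 to 449 ± 73.5 (1.33 ± 0.20), and 2 subunits rose without cKO_NS 4.

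Signals of vessel growth rose in 8 of 22 cases and fell in 2 (median 0.48; 4 rises without cKO_ST 2 and 5 without cKO_NS 1 or cKO_NS 3). Beside Apln these included Mcam (42.3, 34.1, 23.4 and 42.05 RPKM against 181, 217, 135 and 233; 2.41 ± 0.24, adjusted p = 2.44e-04), Hbegf, a ligand of the EGF receptor (33.1, 22.2, 21.3 and 58.9 against 183, 201, 159.9 and 102; 2.30 ± 0.33, adjusted p = 0.00168), and Angpt2, which opposes angiopoietin 1 (10.3, 11.3, 12.5 and 17.6 against 62.03, 84.7, 51.3 and 23.1; 1.90 ± 0.35, adjusted p = 0.00667). In the case of Hbegf and Angpt2 the lowest stroke library was cKO_ST 4. Pgf (1.76 ± 0.42), Vegfa (0.387 ± 0.296 to 3.36 ± 2.502; 1.53 ± 0.38), Adm, adrenomedullin (226 ± 89.1 to 486 ± 105; 1.17 ± 0.28), and its receptor Calcrl (0.92 ± 0.26) rose, and Tek and Ramp2 fell (1 of them called without cKO_NS 2, cKO_ST 1 or cKO_ST 2, and 0 without cKO_NS 4 and cKO_ST 3 together). Of 14 vasoactive genes 3 rose and 1 fell. Edn1, endothelin 1, was 138, 107, 97.3 and 168 against 543, 579.9, 459 and 374 (1.94 ± 0.21, adjusted p = 3.61e-04), and Ptgs2, the inducible prostaglandin synthase, 10.1, 21.8, 25.3 and 38.1 against 71.5, 94.3, 123 and 185 (2.31 ± 0.38, adjusted p = 0.00368). Ddah1, which degrades an inhibitor of nitric oxide synthase, rose from 43.4 ± 16.2 to 119.8 ± 30.6 (1.48 ± 0.27), and Nostrin, which draws the synthase from the membrane, fell (196, 155, 223 and 98.4 against 35.2, 33.1, 96.8 and 31.98; -1.85 ± 0.36, adjusted p = 0.00893), least in cKO_ST 3.

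Stress programmes rose with different breadth. In the list of unfolded-protein and ATF4 genes 5 of 25 rose and 0 fell (median 0.59), while 1 fell without cKO_NS 4 or without cKO_ST 3. Asns, which makes asparagine (chromosome 6 from 7675169 to 7693254 on the minus strand), was 2.65, 2.904, 1.92 and 0.896 in cKO_NS against 14.4, 29.3, 19.5 and 25.2 in cKO_ST (2.91 ± 0.32, adjusted p = 3.88e-04), and Mthfd2, a mitochondrial folate enzyme, 0.2004, 0.706, 1.04 and 2.01 against 12.2, 19.00, 12.6 and 11.2 (2.94 ± 0.34, adjusted p = 4.98e-04). The lowest stroke value of each was several times the highest non-stroke value. Hspa5, the chaperone BiP of the endoplasmic reticulum (chromosome 2 from 34771970 to 34777547 on the plus strand), was 51.2, 60.4, 55.3 and 62.1 against 140.1, 143, 112 and 154 (1.24 ± 0.17, adjusted p = 0.00155). Atf4, the factor of the amino acid response, was 94.8, 125, 133 and 182 against 219.8, 277, 259 and 465 (1.16 ± 0.26, adjusted p = 0.0161), highest in library 4 of both groups, and the secreted factor Manf rose from 12.9 ± 2.23 to 33.1 ± 9.83 (1.26 ± 0.25).

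Short stretches of the Hspa5 and Asns windows are shown because each holds the motif its programme is known for. The ER stress element, CCAAT followed after 9 bases of any kind by CCACG, was in 6 of the 23 windows of that list, 1 of them of the 4 called genes, and in 0.203% of all windows. The amino acid response element TGATGNAA was in 5 of the 23, again 1 of them called, in 2.65% of all windows and in 2.35% of those of rises. Capitals mark the match, which ends 46 bases before the RefSeq start of Hspa5 and 15 bases before that of Asns, within sequence that GENCODE annotates as transcribed.
Hspa5 (chr2:34772020-34772048, plus strand): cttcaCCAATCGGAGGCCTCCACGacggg
Asns (chr6:7693214-7693243, minus strand): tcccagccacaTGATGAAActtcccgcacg

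Of 25 antioxidant and iron-stress genes 8 rose and 0 fell (median 0.66; 10 rose with median-of-ratios scaling). Hmox1, heme oxygenase 1 (chromosome 8 from 75093621 to 75100589 on the plus strand), was 0.527, 1.997, 0.493 and 0.852 in cKO_NS against 20.9, 18.7, 13.2 and 10.5 in cKO_ST (3.11 ± 0.33, adjusted p = 3.29e-04). Nqo1, a quinone reductase, was 3.03, 13.1, 3.39 and 7.61 against 67.7, 67.6, 67.3 and 16.6 (2.84 ± 0.51, adjusted p = 0.00563). Its stroke value was about the same in 3 libraries and lower in cKO_ST 4. The metallothionein gene Mt2 was 559, 349, 652 and 74.02 against 1882, 2154, 3482 and 1039 (2.64 ± 0.59, adjusted p = 0.0166), lowest in library 4 and highest in library 3 of each group. Thioredoxin and its reductase rose together, Txn1 from 115 ± 35.97 to 282 ± 33.6 (1.33 ± 0.23) and Txnrd1 from 12.1 ± 2.37 to 43.5 ± 13.01 (1.73 ± 0.27). Prdx1, a peroxiredoxin, rose from 96.98 ± 13.5 to 219.6 ± 37.9 (1.17 ± 0.18), Gclm, a subunit of the enzyme of glutathione synthesis, from 21.3 ± 4.305 to 42.6 ± 6.56 (0.98 ± 0.21) and the superoxide dismutase Sod1 from 578 ± 54.9 to 1054 ± 197 (0.85 ± 0.17).

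The antioxidant response element TGACNNNGC, bound by NRF2 in many of these genes, was in 9 of 22 windows of that list, 5 of them called, and it is a loose motif found in 16.9% of all windows and in 19.1% of those of rises. The promoter of Prdx1 is printed as one with a match, in capitals, whose letters also contain the AP-1 site. The match lies on the other strand and ends 124 bases before the start, and 195 of 250 bases are shown because the rest is annotated UTR.
Prdx1 (chr4:116685349-116685543, plus strand): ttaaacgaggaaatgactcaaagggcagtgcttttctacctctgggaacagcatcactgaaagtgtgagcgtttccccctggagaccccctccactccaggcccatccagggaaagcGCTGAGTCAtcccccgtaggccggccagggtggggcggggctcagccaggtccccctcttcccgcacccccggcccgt

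Immediate-early genes rose in 6 of 28 cases and fell in 0 (median 0.54), 10 without cKO_NS 4 and 8 with median-of-ratios scaling. Dusp1, a phosphatase of MAP kinases, was 858, 1200.3, 1117 and 1026 RPKM against 1763, 1647, 1674 and 2071 (0.77 ± 0.15, adjusted p = 0.00959) and Klf6 171, 189.9, 182 and 194 against 358, 349, 345 and 279.9 (0.85 ± 0.15, adjusted p = 0.00547). Gadd45a, a stress-response gene, went from 41.03 ± 14.97 to 106 ± 17.8 (1.39 ± 0.25), Ier5 rose by 0.79, and the AP-1 subunit Fosl1, at low levels, by 1.503. Of 20 heat-shock genes only Hsp90ab1 (90.9 ± 33.00 to 156 ± 25.8; 0.81 ± 0.24, adjusted p = 0.0497) and Hspd1 (0.88 ± 0.25, adjusted p = 0.0476) rose, with overlapping groups. That count was 8 without cKO_NS 4, 9 without cKO_NS 4 and cKO_ST 3, and 0 without any single one of cKO_NS 1, cKO_NS 2, cKO_NS 3, cKO_ST 1, cKO_ST 2 or cKO_ST 4.

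Of 26 glycolysis and hypoxia genes 6 rose and 2 fell, with a median of -0.13, like that of all genes. Gapdh was 44.5, 57.3, 62.8 and 89.1 in cKO_NS against 154, 229.8, 151 and 201 in cKO_ST (1.54 ± 0.23, adjusted p = 0.00228), and Pgk1 rose from 26.1 ± 5.37 to 63.1 ± 13.7 (1.24 ± 0.22) and Pgam1 by 0.75. Hif1a, the oxygen-regulated factor, was 234, 216, 192 and 181 against 460.0, 478, 404 and 480.2 (1.15 ± 0.15, adjusted p = 0.00122), with no overlap. Vegfa and Adm, which hypoxia often raises, were the other rises, with the values given among signals of vessel growth. The 2 falls, also in genes that hypoxia often raises, were Ndrg1 from 159.8 ± 48.8 to 46.4 ± 26.8 (-1.91 ± 0.42) and the kinase Pdk1 from 11.3 ± 3.22 to 2.98 ± 3.03 (-1.95 ± 0.53, not called with median-of-ratios scaling, adjusted p = 0.0528). Rises were 3 without cKO_ST 2. Falls were 5 without cKO_NS 4, 4 without cKO_NS 4 and cKO_ST 3, 1 without cKO_NS 1, cKO_NS 2, cKO_NS 3 or cKO_ST 4, and 0 without cKO_ST 2. Of 50 respiratory-chain genes Cycs, cytochrome c, rose from 16.5 ± 5.21 to 49.96 ± 12.4 (1.56 ± 0.27) and the complex I subunit Ndufs7 fell from 27.05 ± 8.51 to 9.63 ± 1.03 (-1.35 ± 0.27), a share under the background (4 rises without cKO_NS 4, 2 without cKO_ST 3). Of 14 cell-cycle genes Ccnd1 was the single call, a share under the 11.0% of all tested genes.

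The machinery of protein synthesis rose. Of 28 translation factors and tRNA ligases 8 rose and 0 fell (median 0.66), 11 with median-of-ratios scaling, 5 without cKO_NS 2, without cKO_ST 1 or without cKO_NS 4 and cKO_ST 3 together, and 4 without cKO_ST 2. Eif1a was 24.1, 24.6, 24.6 and 24.9 in cKO_NS against 72.5, 70.7, 56.8 and 94.04 in cKO_ST (1.52 ± 0.20, adjusted p = 0.00105) and the helicase Eif4a1 48.2, 48.1, 52.4 and 55.2 against 115, 154, 107 and 132 (1.29 ± 0.18, adjusted p = 0.00155). The 4 non-stroke values of each lay close together. Eef1e1, which scaffolds tRNA ligases, was 7.16, 4.45, 5.89 and 2.58 against 34.01, 53.3, 13.2 and 60.3 (2.64 ± 0.44, adjusted p = 0.00397), with cKO_ST 3 lowest, and Eif2s2 rose from 16.97 ± 5.14 to 43.95 ± 4.66 (1.36 ± 0.24). Eef1a1, Eif6 and the tRNA ligases Gars and Nars rose by 0.78, 1.08, 0.82 and 1.203.

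Ribosome assembly followed the same direction, with 7 rises and 0 falls of 24 genes (median 0.71; 3 without cKO_ST 2, 4 without cKO_NS 2). Ddx21, a nucleolar helicase, was 54.2, 61.1, 48.03 and 99.5 against 188, 195, 151 and 187 (1.49 ± 0.23, adjusted p = 0.00241), with cKO_NS 4 the highest non-stroke library. Fbl, the methylase of ribosomal RNA, rose from 13.2 ± 3.497 to 38.5 ± 11.7 (1.46 ± 0.28), Gnl3 from 10.2 ± 5.39 to 31.5 ± 1.95 (1.64 ± 0.29) and Nop58 from 4.62 ± 2.200 to 14.2 ± 3.88 (1.48 ± 0.33). Ncl, nucleolin, rose by 0.87, Heatr1 by 1.26 and Tsr1 by 1.24. Of 31 proteasome subunits 6 rose and 0 fell (median 0.66), 13 with median-of-ratios scaling. The 6 were Psmd11 (1.12 ± 0.25), Psmd14 (0.91 ± 0.21), Psma5 (0.91 ± 0.23), Psmd1 (1.07 ± 0.27), Psmb3 and Psmb7, and 1 was called without cKO_NS 2, without cKO_ST 1 or without cKO_ST 2, and 3 without cKO_NS 3.

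By count, genes of the actin cytoskeleton held the most rises of any list described here, 16 of 35, against 4.87% of all tested genes (10 without cKO_ST 2, 19 with median-of-ratios scaling, median 0.55). Lists differ in size, and cytokines and coagulation genes, with 6 rises of 13 each, had higher medians (1.36 and 1.16). Actb, beta-actin, was 7964, 8967, 6822 and 7284 RPKM in cKO_NS against 18192, 24639, 15862 and 15274 in cKO_ST (1.23 ± 0.17, adjusted p = 0.00168), so this frequent reference gene was not constant. Msn, moesin, which ties actin to the membrane (chromosome X from 96096042 to 96168552 on the plus strand), was 348, 383, 313 and 390.1 against 1398, 1611, 1007 and 1474 (1.92 ± 0.17, adjusted p = 1.24e-04), and the crosslinker Actn1 was 20.2, 17.1, 12.5 and 13.6 against 92.2, 115, 53.02 and 83.8 (2.34 ± 0.26, adjusted p = 4.05e-04). All stroke libraries stood above all non-stroke libraries for each of these, with cKO_ST 2 the highest. Cald1, caldesmon, rose from 9.15 ± 2.77 to 56.98 ± 19.6 (2.50 ± 0.30), the myosin Myh9 from 53.9 ± 5.52 to 139 ± 26.5 (1.33 ± 0.19), Vcl, vinculin, from 81.6 ± 7.92 to 184 ± 35.5 (1.14 ± 0.19), Actg1 by 1.35 and the tropomyosins Tpm3 by 1.34 and Tpm4 by 0.99. Cofilin (Cfl1), thymosin beta 4 (Tmsb4x), vimentin (Vim), Vasp, Cnn2, Arpc2 and Myl12a rose by 0.55 to 1.01. Myl9, a myosin light chain of contractile cells, fell from 5.36 ± 2.14 to 1.003 ± 0.655 (-1.68 ± 0.38), a call lost without cKO_NS 2 or cKO_ST 1. The contractile mural marker Acta2 was 1.72, 1.501, 0.268 and 5.24 against 1.38, 2.87, 0.183 and 4.697 (0.05 ± 0.56, adjusted p = 0.965).

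CArG boxes, the sites of serum response factor, were in 6 of 32 windows of actin genes, 4 of them called (Actg1, Vcl, Cnn2 and, downward, Myl9), in 1.62% of all windows and in 2.65% of those of rises. The promoter of Vcl is printed with its match in capitals, 217 bases before the start.
Vcl (chr14:20929148-20929397, plus strand): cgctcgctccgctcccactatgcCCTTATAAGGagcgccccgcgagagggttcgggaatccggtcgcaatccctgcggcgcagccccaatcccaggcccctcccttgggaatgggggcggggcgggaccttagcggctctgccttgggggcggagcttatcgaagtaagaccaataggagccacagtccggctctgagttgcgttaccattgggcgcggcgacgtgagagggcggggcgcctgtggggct

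Quiescence genes under FOXO factors were called in both directions: of 23 tested 4 fell and 2 rose (median -0.58). Beside Pik3ip1 the falls were Cdkn1b, the cell-cycle inhibitor p27 (157, 168, 209.9 and 115 against 69.9, 60.9, 64.2 and 77.6; -1.22 ± 0.20, adjusted p = 0.00386), Tsc22d3, a glucocorticoid-induced gene (528, 604, 683 and 432 against 242, 229, 328 and 167; -1.23 ± 0.22, adjusted p = 0.00553), and Ddit4 (-1.05 ± 0.22). Btg1 rose from 106 ± 16.6 to 262 ± 69.97 (1.27 ± 0.21) and Sesn3 by 2.18, the latter with overlapping groups. Rises were 1 without cKO_NS 2, cKO_NS 3, cKO_NS 4, cKO_ST 1, cKO_ST 2 or cKO_ST 3. Among 26 regulators of cell death 3 rose and 2 fell, with a median of -0.21 against -0.13 for all genes. The share of falls was near the 6.09% of all genes, and that of rises above 4.87%. The protective Bcl2l1 (79.8 ± 14.04 to 34.6 ± 2.56, -1.17 ± 0.19) and Casp9 (-1.06 ± 0.26) fell, and Cflar, an inhibitor of caspase 8 (62.1 ± 11.7 to 116 ± 6.04, 0.91 ± 0.18), Casp8 (1.28 ± 0.34) and Casp4 (2.28 ± 0.53) rose. Rises of that list were 1 without cKO_ST 2, and falls were 1 without cKO_NS 2, cKO_NS 3, cKO_ST 1 or cKO_ST 2 and 4 without cKO_NS 4 and cKO_ST 3.

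Markers of other cells were looked at in the same comparison, and their part in the results above was not tested. Gja1, a gap-junction gene on the astrocyte list that endothelium also expresses, was 317, 359, 304 and 323 in cKO_NS against 1064, 1049, 989.7 and 1074 in cKO_ST (1.68 ± 0.13, adjusted p = 6.34e-05), while Gfap, Aqp4, Slc1a2, Gjb6 and Aldh1l1 were under 1 RPKM in all 8 libraries and Slc1a3 was 0.527, 1.85, 0.286 and 14.2 against 0.793, 0, 1.38 and 1.003. Snap25 of the neuron list fell (6.91, 4.83, 3.39 and 25.6 against 1.46, 1.197, 3.003 and 0.272; -1.90 ± 0.54, adjusted p = 0.046), but not with median-of-ratios scaling (adjusted p = 0.057), and the call was lost without cKO_NS 1, cKO_NS 2, cKO_NS 4, cKO_ST 1, cKO_ST 2 or cKO_ST 4. Ctss of the microglia list was 5.88, 12.4, 14.1 and 2.56 against 0.159, 1.58, 3.55 and 0.186 (-2.06 ± 0.55, adjusted p = 0.036), with Cx3cr1, Tmem119, Csf1r, Aif1 and Mrc1 under 1 RPKM throughout. Falls of that list were 0 without cKO_NS 2, cKO_NS 3, cKO_ST 1, cKO_ST 2 or cKO_ST 4, and 2 without cKO_NS 4. The summed microglia markers were 15.8 to 39.1 in cKO_NS and 5.52 to 12.9 in cKO_ST, lower in every stroke library, and the summed neuron markers were 4.34 to 40.2 and 0.709 to 5.02. The pericyte marker Rgs5 was 22.03, 28.2, 16.6 and 19.8 against 12.8, 7.84, 23.99 and 93.8, and cKO_ST 4 stood far above the other 7 libraries. Of the red-cell, oligodendrocyte, leukocyte, choroid plexus and mural lists 0 members were called with all 8 libraries in the main fit, which does not pair libraries by number. With library number added to the fit as a block, 6 of 9 red-cell and platelet genes fell, and so did Ttr of the choroid plexus list. Without that block, of the same 9 genes 6 fell without cKO_ST 3, 1 rose without cKO_ST 4, and 4 fell without cKO_NS 4 and cKO_ST 3 together. Hbb-b1 was 3448, 1465, 10401 and 3269.8 against 535, 339, 4841 and 1371 (-1.79 ± 0.76, adjusted p = 0.154 in the main fit), lower in cKO_ST for each library number. Hbb-bs, a near-identical copy that may share its reads, had nearly the same values. Cnp of oligodendrocytes was 33.3, 3.79, 4.07 and 24.4 against 15.8, 5.17, 3.42 and 14.9, higher in libraries 1 and 4. The remaining markers named by the rule were not called in the main fit: Tubb3 (-1.36), C1qb (-1.46), S100a8 (-1.53), S100a9 (0.17), Ttr (-2.53) and Kcnj13 (-1.20) had adjusted p from 0.118 to 0.884.

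The last comparison asks whether the response to stroke in knockouts differed from that in controls, and it uses all 16 libraries. Genes with a mean of at least 1 RPKM over the 16 were tested, again 9838 in number, of which 9625 are also among those tested in the knockouts. At an adjusted p under 0.05, 0 of 9838 genes differed by limma. At an unadjusted p under 0.05, 691 did (7.02%), and the smallest adjusted p was 0.447. The median SE of the difference was 0.46 on the log2 scale, so differences of moderate size could not be seen with 4 libraries a group. Large ones, such as that of Gstk1 given below, did not pass either. Of 1072 genes called in knockouts and tested in this fit, 1024 had the same sign in controls. In controls 832 genes rose (8.46%) and 476 fell (4.84%) in the 16-library fit. In that same fit 634 genes rose and 857 fell in knockouts. The overlap was counted between the 8-library calls in knockouts and the 16-library calls in controls, which differ in power. By that count 362 rises and 277 falls were called in both genotypes, with 0 genes called in opposite directions.

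**Figure D5:**
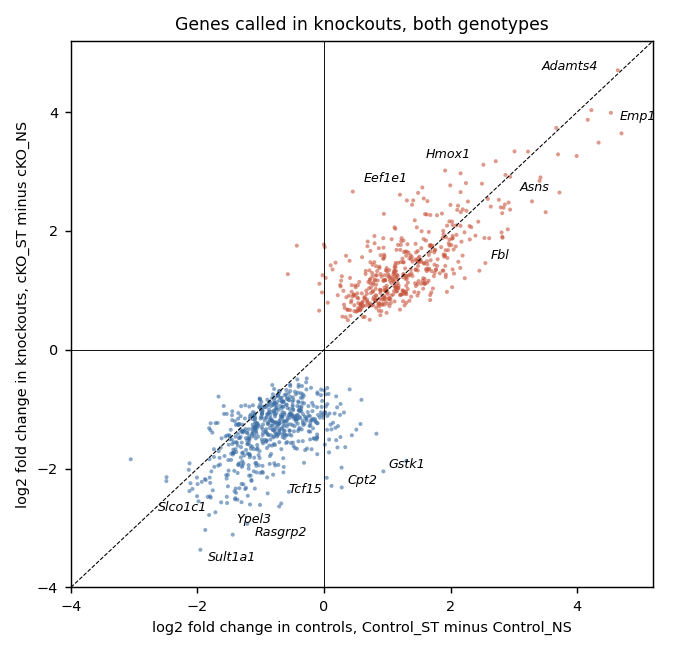
Log2 fold change of stroke in knockouts (vertical axis) against that in controls (horizontal axis) for the 1072 genes called in knockouts and tested in the 16-library fit, with red points for rises and blue points for falls in knockouts and the dashed line marking equal change. Points were chosen for their change in knockouts, so a position nearer to 0 on the horizontal axis is partly a result of that choice, and 1024 points share their sign.

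The size of rises was then set beside that in controls. The difference, knockout minus control, was 0.06 ± 0.62 for Adamts4, 0.06 ± 0.52 for Rnd1, -0.03 ± 0.48 for Asns, -0.05 ± 0.27 for Hspa5, -0.12 ± 0.21 for Msn and 0.01 ± 0.28 for Ddx21, each within its SE of 0, and -0.55 ± 0.50 for Emp1. Other rises had smaller log2 fold changes in knockouts, and none of these differences passed: they were -0.73 ± 0.35 for Adamts9 (unadjusted p = 0.0495), -0.85 ± 0.49 for Mir147 (0.0967), -0.88 ± 0.33 for Ch25h (0.0147), -1.09 ± 0.39 for Fbl (0.0113) and -0.68 ± 0.28 for Col4a1 (0.026), all with an adjusted p by limma of 0.681 or more. Mean RPKM in cKO_NS and Control_NS was 35.5 and 18.2 for Adamts9 and 13.9 and 4.90 for Mir147. For Ch25h it was 76.5 and 34.2, and for Col4a1 53.3 and 27.6. Stroke means in cKO_ST and Control_ST were 349 and 287, 167 and 108, 304 and 266, and 138 and 113, in that order. Fbl, with knockout means given above, was 5.14, 7.28, 9.68 and 7.18 in Control_NS and 54.8, 37.4, 34.8 and 67.1 in Control_ST. Several large falls were larger on the log2 scale in knockouts. Rasgrp2 changed by -2.93 ± 0.33 in knockouts and -1.21 ± 0.35 in controls (difference -1.72 ± 0.49, unadjusted p = 0.00268, adjusted p = 0.681). Tcf15 changed by -2.59 ± 0.43 and -0.68 ± 0.43 (difference -1.91 ± 0.61, unadjusted p = 0.00576, adjusted p = 0.681) and Slc22a8 by -2.60 ± 0.29 and -1.17 ± 0.35 (difference -1.43 ± 0.49, unadjusted p = 0.00959, adjusted p = 0.681). None of the 3 passed, and all had been chosen for their size in knockouts. Mean RPKM in cKO_NS and Control_NS was 42.7 and 24.2 for Rasgrp2, 15.3 and 3.83 for Tcf15 and 30.9 and 26.9 for Slc22a8. In cKO_ST and Control_ST it was 5.19 and 10.2, 1.62 and 1.81, and 4.20 and 12.9, in that order. Cldn5 changed by -0.69 ± 0.20 in knockouts and 0.00 ± 0.23 in controls (difference -0.69 ± 0.32, unadjusted p = 0.0471, adjusted p = 0.702). Axin2 (-0.13 ± 0.37), Lef1 (-0.05 ± 0.22), Slc2a1 (-0.45 ± 0.34) and Mfsd2a (-0.47 ± 0.42) had differences within 1.5 SE of 0.

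The smallest p-values for a difference belonged to genes whose change with stroke was lower in knockouts than in controls. Gstk1, a glutathione transferase of mitochondria and peroxisomes (chromosome 6 from 42245935 to 42250447 on the plus strand), was 56.9, 22.2, 23.7 and 14.1 RPKM in cKO_NS against 3.96, 6.06, 6.498 and 5.57 in cKO_ST. In controls Gstk1 was 9.24, 6.74, 9.64 and 4.01 in Control_NS against 7.16, 9.67, 25.9 and 23.2 in Control_ST. It fell in knockouts (-2.05 ± 0.37) and was 0.94 ± 0.42 in controls (difference -2.99 ± 0.59, unadjusted p = 7.96e-05, adjusted p = 0.447). Cpt2, which brings fatty acids into beta-oxidation (chromosome 4 from 107903981 to 107923610 on the minus strand), was 18.8, 7.23, 4.31 and 20.7 against 1.27, 1.66, 1.77 and 0.822 (difference -2.60 ± 0.54, unadjusted p = 1.36e-04, adjusted p = 0.447). Control values of Cpt2 were 3.96, 5.34, 2.29 and 3.48 in Control_NS against 3.93, 4.70, 4.68 and 5.30 in Control_ST. The mitochondrial ribosomal gene Mrpl23 (difference -2.01 ± 0.41), the import factor Timm8b (-1.43 ± 0.31) and Actr1b of the dynactin complex (-2.24 ± 0.49) followed. In the other direction were Gm15713 (1.77 ± 0.45), the B-cell coactivator Pou2af1 (1.80 ± 0.48), the splicing factor Sf3b4 (2.10 ± 0.60), 9130019P16Rik (1.38 ± 0.41) and Echdc1 (0.75 ± 0.22). All 10 had adjusted p of 0.447 or more and are named by rank only.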

How the data were processed

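Per the labels, live CD45- CD31+ PDGFRb- cells were sorted from stroke and non-stroke hemispheres, and polyadenylated RNA was amplified as 3' tags. The authors deposited 1 table of RPKM values, read numbers divided by gene length and library depth. The submitters' processing notes name edgeR and mm10, but no aligner, annotation or gene length is given in the sources used here. The deposited table has 24260 rows, of which 54 that shared 23 names were dropped, and 8 columns that belong to no described sample were not used. Depth, estimated from the steps between low RPKM values, was 7.22 to 19.7 M reads, but only 31.3 to 42.9% of low values came out whole within 0.03 reads, so no count test was run.

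What was computed here: limma 3.58.1 (R 4.3.3) with a trended prior on log2(RPKM + 1), for genes whose RPKM averaged 1 or more over the 8 knockout libraries (16 for the difference between genotypes), with Benjamini-Hochberg adjustment, two-sided, threshold 0.05. The script was checked on simulated data. No label ties a library to its own animal, so the p-values reflect only how these samples vary, which may be technical. Xist and 4 Y-linked genes were not tested. Median-of-ratios scaling, other pseudocounts, filters, normalizations, a replicate block and leaving out libraries were tried as alternatives.

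The comparison, the 48 gene lists and the rules were chosen with earlier results of these data known. The rule for names took the 12 largest rises and 12 largest falls with non-overlapping groups and at least 5 RPKM, up to 4 called members of each list by p, the 5 smallest p in each direction of the difference, and a set of pathway genes. Other called list members are named to account for each list's count, after their values were seen. A few genes that the rule or the lists hold enter every count and median but are not reported here by name. Gene positions are from GENCODE M21 (GRCm38) and promoters from RefSeq (GRCm38.p6).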

Additional observations from a re-analysis of the deposited data

Results flagged for a closer look

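Single libraries stood apart from the other 3 of their group, by a gap to the nearest value, over the group's range, above Dixon's 95% critical value, in 19 of 340 groups of values examined, where chance gives about 1 in 20. cKO_ST 3 was the library in 7 of them. Its RPKM was 69.9 for Adamts4 (others 129 to 143), 2.63 for Vstm2b (0.105 to 0.297), 96.8 for Nostrin (32.0 to 35.2), 151 for Ddx21 (187 to 195), 4118 for Slc2a1 (2149 to 2342), 0.813 for Pou2af1 (0.0396 to 0.0849) and 0.0212 for Mmp9 (others listed at 0). For the first 5 of these genes the value lay on the side of cKO_NS.

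cKO_NS 4 was apart for Socs3 (30.3, others 12.2 to 12.8), Cflar (79.7, others 55.2 to 57.6), Abcb1a (121, others 191 to 206) and Pou2af1 (0.157, others listed at 0), and for the first 3 it lay on the side of cKO_ST. In cKO_NS 3 it was Lcn2 (266, others 73.2 to 83.9) and Csf3 (0.190, others listed at 0). In cKO_NS 1 it was Vstm2b (3.15, others 10.2 to 12.7) and Casp9 (19.1, others 13.9 to 14.7), and in cKO_NS 2 Ocln (275, others 221 to 224). In cKO_ST 1 it was Il4ra (6.40, others 10.1 to 10.4) and Gpr124 (0.5002, others 1.52 to 1.72), and in cKO_ST 4 Klf6 (279.9, others 345 to 358). The cause of these values was not tested.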

How the results depend on the processing

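The count of 1078 genes, 479 up and 599 down, was 651, 302 and 349 with no filter on low values, where 16946 genes were tested, and 630, 264 and 366 without cKO_ST 3 and cKO_ST 4, both labelled male. Of these libraries cKO_ST 4 had high Y-linked RNA and cKO_ST 3 did not. Leaving out 1 library at a time gave 560 to 1059 calls in all, 257 to 503 rises and 302 to 556 falls, and 471 genes were called in all 8 such fits. Same-numbered libraries of the 2 groups had correlated deviations (0.09999, 0.132, 0.210 and 0.102), each the highest of its row and column. Low Xist with high Y-linked RNA was found in library 4 of both groups. Red-cell and platelet markers were highest in library 3 of both, and choroid plexus and ependyma markers in library 2 of both. Together these are a hint from the data that numbers may pair samples, which the labels do not state. The main fit ignores any such pairing. With the replicate block 527 rose and 657 fell, and with the block and median-of-ratios scaling 721 rose and 445 fell. Removing a trend with GC content, added after seeing the data, gave 611 rises and 427 falls of 9409 genes. With the replicate block 6 of 9 red-cell and platelet genes fell, against 0 without it (Hbb-b1 adjusted p = 0.00331, against 0.154), Ttr fell too (0.0183) and the fall of Snap25 was lost (0.0772). The difference between genotypes was 0 genes in every setting run, the replicate block included. Across the settings 0 fold changes of named genes switched sign with an adjusted p by limma under 0.05 in the main or the other fit. Sign changes without such a call were not counted. The causes of the changes above were not tested. Depth was on average lower in cKO_NS than in cKO_ST, which limits genes near the filter, and RPKM give no counts from which to draw intervals.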

Other observations

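The same lists were read in controls, with no sample shared between the 2 genotypes. Values for controls come from the 16-library fit and those for knockouts from the 8-library fit, so counts of calls have different power, and the difference of list medians between genotypes was not tested. The median log2 fold change was 0.66 in knockouts and 1.13 in controls for the interleukin-6, STAT3 and acute-phase list, 0.66 and 1.02 for antioxidant genes, 0.71 and 1.10 for ribosome biogenesis, 0.55 and 0.84 for actin genes and 0.14 and 0.44 for the respiratory chain. For barrier transporters it was -1.20 and -0.97, for xenobiotic enzymes -1.15 and -0.64 and for tight junctions -0.46 and -0.06. Lists with a higher median in knockouts included coagulation (1.16 and 0.84), cytokines (1.36 and 1.13) and integrins (0.47 and 0.32), and those with nearly equal medians basement membrane (0.59 and 0.57) and angiogenic signals (0.48 and 0.43). Of 39 lists 30 had the lower median in knockouts and 9 the higher. The median of all genes was -0.13 in knockouts and 0.01 in controls, a gap in the same direction as that of the first 8 lists given here and of all 30. The 30 and 9 were counted with the deposited scaling and without allowance for that gap, so they do not show a weaker response of the lists.

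Socs3, named by the rule and not called in knockouts, changed by 0.82 ± 0.31 in knockouts and 2.24 ± 0.32 in controls (difference -1.42 ± 0.45, unadjusted p = 0.00533, adjusted p = 0.681), a difference that did not pass. Socs3 was 7.44, 5.78, 7.09 and 2.95 RPKM in Control_NS and 31.1, 22.5, 26.0 and 44.2 in Control_ST, with knockout values given above. The ranges of cKO_ST and Control_ST overlapped, and all Control_NS values were below all of cKO_NS. Mrpl23 was 6.85, 10.6, 6.93 and 14.7 RPKM in cKO_NS and 4.58, 8.26, 7.003 and 8.83 in cKO_ST, against 1.45, 1.97, 2.98 and 3.16 in Control_NS and 11.5, 10.0, 7.01 and 9.31 in Control_ST, so that only controls had non-overlapping groups.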
